A study of Mus musculus with 2 samples.

Results

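The columnar epithelial cells of the pup stomach were examined across all genes against those of the E19 stomach. A cell was taken if the deposited class label read Columnar Epithelial and its sample tag was that of the pup stomach. This gave 351 cells of 7808 in all and 56.8% of the 618 pup stomach cells, with an exact 95% Clopper-Pearson interval of 52.8 to 60.7%. The E19 stomach gave 366 such cells of 1403. Epithelial and other cells of the esophagus, the gastroesophageal squamocolumnar junction (GE-SCJ) and the stomach were tagged by region and stage and sequenced together with 10x Genomics 3′ chemistry. All mice were wild-type C57BL/6 and untreated as far as the labels state, namely embryos of day 15 (E15, 6 mice), embryos of day 19 (E19, 2 mice), pups of day 2 (2 mice) and adults of 8 weeks (3 mice). These numbers of mice are those of the labels, and the study's methods give another number for its pools. The mice of a stage were pooled and cells carry no mouse label, so each region and stage is 1 sample, no difference was tested, and differences between stages cannot be told apart from differences between the few animals. Adult stomach cells are not analysed here.

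The pup cells held 11420234 unique molecular identifiers (UMIs, each standing for 1 captured transcript) with a median of 29810 per cell and a range of 1298 to 78793. The E19 cells held 9547554 UMIs with a median of 24241. The median mitochondrial share per cell was 4.08% in the pup and 2.54% at E19. For the level of a gene all its UMIs in a group were added up and expressed per 1000000 UMIs of that group (CPM). Because each molecule is counted once at its 3′ end, CPM needs no scaling by gene length. Ranges in parentheses are exact 95% intervals. They cover counting error only and say nothing about the spread between mice.

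The glandular stomach is lined by a single layer of columnar cells that folds into pits and glands. Pit (surface) cells make protective mucus, neck cells make a different mucus, parietal cells secrete acid through the H+/K+ ATPase, and chief cells at the gland base store digestive enzyme precursors. In rodents these lineages mature around birth, when feeding changes from the placental supply to fat-rich milk that must be clotted and digested in the stomach.

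Summed over the class, the markers fixed for it were above the immune background. Tff1, a trefoil peptide of surface mucus, stood at 8826 CPM in the pup cells, Gkn1, a gastrokine of surface cells, at 2601 CPM, Pgc, the precursor of pepsin C, at 33193 CPM, and Lgals4, a galectin of gut epithelium, at 232 CPM. Their sum was 44852 CPM, against 2581 CPM in the pup immune cells of the 3 regions, which should lack these products and so measure free RNA and mixed droplets. This did not hold for every kind of cell in the class. The 75 parietal-like cells of the clustering described further on had 231 CPM of Tff1, 40.7 CPM of Gkn1, 1060 CPM of Pgc and 7.91 CPM of Lgals4, below the 624, 166, 1753 and 37.9 CPM of the pup immune cells, and 11994 CPM of Atp4a. Defining markers of other classes were low. The summed stromal markers stood at 347 CPM in the pup cells and 721 CPM at E19 (29909 CPM in pup stomach stroma), led by Col3a1, the immune markers at 25.3 and 45.9 CPM, the squamous markers at 99.6 and 136 CPM, the endothelial markers at 17.6 and 33.0 CPM, the mesothelial markers at 33.0 and 54.6 CPM, and the neural markers at 5.95 and 36.4 CPM. Kdr of the endothelial list was at 0 in the pup cells. Hemoglobin and other erythroid markers summed to 243 CPM in the pup cells and 1814 CPM at E19, led by Hbb-bs. All of these sums were lower in the pup than at E19, and their part in the ratios below was not tested.

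Short upstream sequences are shown for 5 genes whose levels carry the results: Pgc and Cym, which encode the pepsin C precursor and the milk-clotting enzyme chymosin, Atp4a, the catalytic subunit of the acid pump, and the neighbouring gastrokines Gkn2 and Gkn3, whose transcripts lay mostly in different clusters of pup cells. Each is the 250 bases before the annotated start, written 5′ to 3′ on the gene's strand, from RefSeq on GRCm38.p6. Capitals mark matches to 3 motifs, searched on both strands: the TATA box motif, spelled TATAAA, an E-box, spelled CAGCTG, and a binding motif of GATA factors, spelled AGATAA. Pgc lies at chr17:47726592-47726841 on the plus strand, Cym at chr3:107221733-107221982 on the minus strand, Atp4a at chr7:30711959-30712208 on the plus strand, Gkn2 at chr6:87373115-87373364 on the plus strand and Gkn3 at chr6:87388936-87389185 on the minus strand.
Pgc: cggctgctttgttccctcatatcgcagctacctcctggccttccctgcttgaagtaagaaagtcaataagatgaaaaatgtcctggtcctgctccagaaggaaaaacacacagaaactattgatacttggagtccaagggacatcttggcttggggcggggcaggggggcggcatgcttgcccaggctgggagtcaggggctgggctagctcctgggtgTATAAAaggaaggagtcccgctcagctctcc
Cym: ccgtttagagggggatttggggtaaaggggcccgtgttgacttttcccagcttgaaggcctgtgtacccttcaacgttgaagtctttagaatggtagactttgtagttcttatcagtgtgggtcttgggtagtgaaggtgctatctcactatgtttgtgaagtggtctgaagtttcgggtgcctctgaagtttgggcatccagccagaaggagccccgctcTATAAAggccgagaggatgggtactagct
Atp4a: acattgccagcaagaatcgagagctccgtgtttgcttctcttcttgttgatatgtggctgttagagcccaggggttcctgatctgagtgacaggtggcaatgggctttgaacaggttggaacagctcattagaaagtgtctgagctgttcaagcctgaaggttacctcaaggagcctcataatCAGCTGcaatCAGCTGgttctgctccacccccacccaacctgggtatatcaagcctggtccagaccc
Gkn2: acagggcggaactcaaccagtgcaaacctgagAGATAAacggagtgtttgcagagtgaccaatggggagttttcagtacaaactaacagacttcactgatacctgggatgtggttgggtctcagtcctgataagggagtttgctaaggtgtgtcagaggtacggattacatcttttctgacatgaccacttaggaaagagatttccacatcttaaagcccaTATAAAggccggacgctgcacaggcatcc
Gkn3: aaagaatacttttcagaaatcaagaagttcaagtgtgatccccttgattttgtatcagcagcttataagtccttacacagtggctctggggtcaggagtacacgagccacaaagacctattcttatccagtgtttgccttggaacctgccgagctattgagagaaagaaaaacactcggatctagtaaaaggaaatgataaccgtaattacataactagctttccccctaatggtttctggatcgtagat

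TATAAA was found between 25 and 31 bases before the start of Pgc and between 23 and 29 bases before the starts of Cym and Gkn2. Atp4a had 2 matches to CAGCTG, between 51 and 67 bases before its start. Gkn2 also had AGATAA, between 212 and 218 bases before its start, and Gkn3 had no match to these letters in this window. Of 27025 mouse promoters of this length, 13.0% held TATAAA, 12.8% held CAGCTG, 10.3% held AGATAA and 4.05% held AAGGTCA, a motif of estrogen-related receptors. That motif was found in none of the 5 promoters shown. Of 20 genes looked up 16 had an entry, all but Atp4b, Clps, Pga5 and Tff1. Among these 16 the motif was found in the promoter of Kcnj16. These matches describe the letters only.

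Of 9958 genes that reached 100 UMIs when the 2 stages were added, 546 genes (5.48%) were at least 2-fold higher in the pup cells and 980 genes (9.84%) at least 2-fold lower. The median log2 ratio of pup over E19 over these genes was -0.25, and the 10 leading genes held 16.1% of UMIs in the pup and 10.1% at E19. With trimmed mean of M values (TMM) scaling the median was 0.02, with 824 genes higher and 552 lower, and with ratios centred on the median 786 were higher and 580 lower. The ratios below are on the CPM scale and are read against the median of -0.25.

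**Figure D1:**
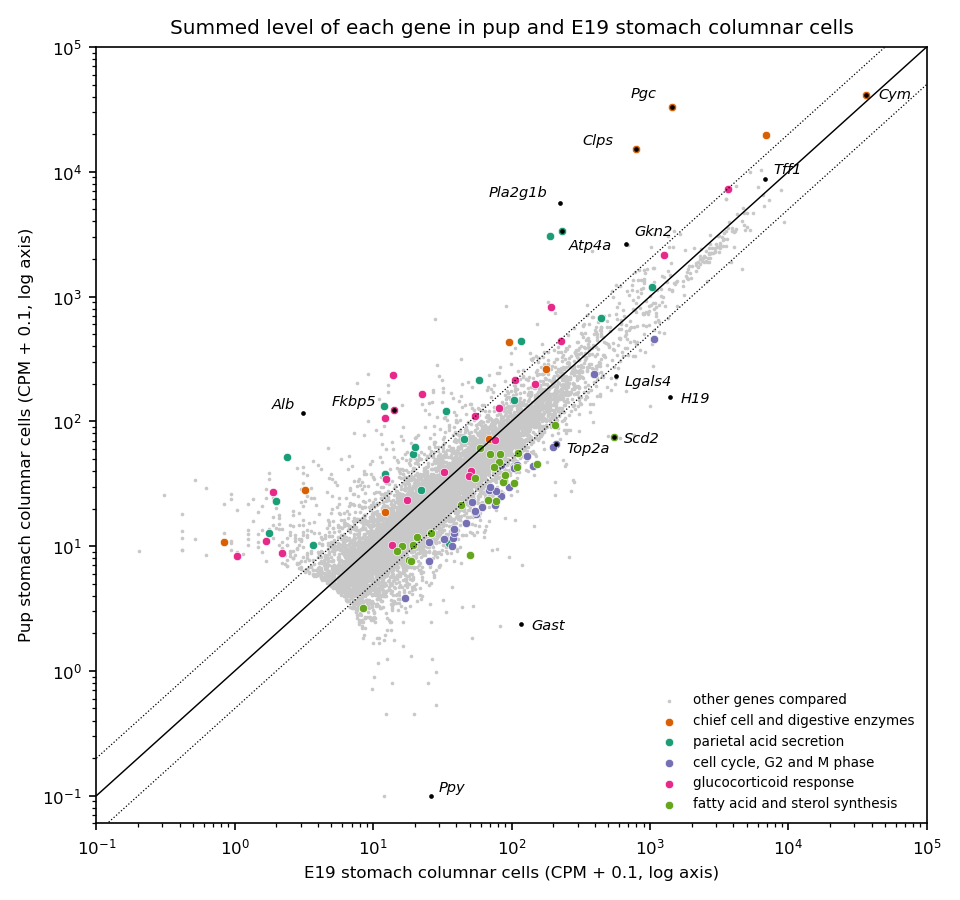
Summed level of each of 9958 genes in the E19 (x axis) and pup (y axis) stomach columnar cells, in CPM with 0.1 added, on log axes. The solid line marks equal levels and the dotted lines 2-fold differences. Colours mark members of 5 gene lists and black dots the labelled genes, with Pgc, Clps, Pla2g1b and Atp4a far above the upper line and H19, Scd2, Top2a and Gast below the lower one.

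The digestive enzymes held the highest levels in the pup cells and several of the largest ratios. Of 17 genes listed for chief cells and digestive enzymes, 11 were compared, with a median log2 ratio of 2.18 beside -0.25 for all genes. In the pup 7 were at least 2-fold higher and none was lower, beside 5.48% and 9.84% of all genes. Pgc stood at 33193 CPM (33087 to 33299) in the pup, 1453 CPM (1429 to 1477) at E19 and 1718 CPM at E15, a ratio of 22.8 between pup and E19. The gene (chr17:47726842-47734482, plus strand, protein coding) had the largest gain in CPM of all genes.

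The other pepsin and milk enzymes differed from Pgc in their timing. Pga5, encoding pepsinogen A, stood at 19548 CPM in the pup, 6939 CPM at E19 and 787 CPM at E15, with the larger ratio between E15 and E19 and the larger difference in CPM between E19 and the pup. Cym, the most abundant gene of the pup cells, was already at 36498 CPM (36377 to 36620) at E19 and at 41375 CPM (41257 to 41493) in the pup, a log2 ratio of 0.18 (0.17 to 0.19), whereas E15 cells had 5135 CPM. Cym, with its place in milk clotting, was thus near its pup level before birth, while the level of Pgc did not differ by 2-fold between E15 and E19. Free RNA of Pgc, given below for the pup and E19, was not measured for E15. Its part in the Pgc levels at the earlier stages was not tested.

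Clps, encoding the pancreatic lipase cofactor colipase, was at 15227 CPM in the pup and 799 CPM at E19, a log2 ratio of 4.25 (4.22 to 4.29). Pla2g1b, a secreted phospholipase A2 of digestive juices, was at 5641 CPM in the pup and 222 CPM at both earlier stages, a ratio of 25.3 over E19. Pnliprp2, a lipase that digests milk fat, was far less abundant, with 1.89 CPM at E19 and a log2 ratio of 3.54, and Cel, another lipase, had 3 UMIs in the pup. These enzymes are best known from the exocrine pancreas, and a list of its other acinar products, written after the values were seen and of which 5 genes are not in the matrix used here, gave mostly low counts in the pup cells. No UMI was found for Prss2, Cela3b or Reg1, 3 for Cpb1, 5 for Cpa1 and 13 for Ctrb1, while Cela1 had 341. Sycn, a zymogen granule protein that was not on that list, had 205 CPM in the pup. A count of 0 allows up to 0.263 CPM.

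Further products of this list were Cblif, the intrinsic factor that binds vitamin B12, at 433 CPM in the pup and 95.6 CPM at E19, Rnase1, a secreted ribonuclease, at 27.9 and 3.14 CPM, and Chia1, an acidic chitinase, at 10.6 and 0.733 CPM. Free RNA of the enzymes was visible at both stages. In immune cells Pgc stood at 1753 CPM in the pup and 818 CPM at E19, and Clps at 571 and 259 CPM. At E19 the columnar cells, with 1453 CPM of Pgc and 799 CPM of Clps, were within a few fold of these levels.

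The share of cells holding a product was compared after thinning each cell to 5000 UMIs, which left out 10 pup and 21 E19 columnar cells. Pla2g1b had 3 or more UMIs in 76.8% of 341 pup cells (72.0 to 81.2%) and 11.3% of 345 E19 cells (8.16 to 15.1%), against 3.45% of 58 pup immune cells. At E19 the share in immune cells was 3.17%. Clps reached 62.8% and 44.6%, with 22.4% of pup and 8.73% of E19 immune cells, and Cblif 19.1% and 5.80%, with 1.72% and 0.794%. Without thinning, 97.7% of pup and 90.7% of E19 cells had at least 1 UMI of Pla2g1b, as did 59.3% of pup immune cells, whose median depth was 5935 UMIs. For Pgc the immune cells reached 81.0%, so its share of 83.3% in the pup columnar cells says little about how many cells transcribed it.

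Genes of acid secretion were the second group with large ratios. Of 20 listed genes, 19 were compared, with a median log2 ratio of 1.64. In the pup 13 were at least 2-fold higher and 1 was lower, beside 5.48% and 9.84% of all genes. Atp4a and Atp4b, the catalytic and the beta subunit of the acid pump, stood at 3340 and 3034 CPM in the pup and 232 and 191 CPM at E19, with log2 ratios of 3.85 (3.79 to 3.91) and 3.99 (3.92 to 4.06). At E15 they were at 69.4 and 96.6 CPM. Atp4a lies at chr7:30712209-30725534 on the plus strand.

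The ion channels and receptors that serve the pump were higher as well. Kcne2, a potassium channel subunit at the acid-secreting membrane, had 133 and 11.9 CPM, Kcnj16, an inward rectifier, 51.2 and 2.30 CPM, and Hrh2, the histamine receptor that drives secretion, 22.9 and 1.89 CPM. Slc4a2, the anion exchanger that exports bicarbonate from parietal cells, had 215 and 58.4 CPM, and Clic6, a chloride channel protein of parietal cells, 444 and 118 CPM. Car2, the carbonic anhydrase that supplies protons, differed little, at 1195 and 1033 CPM. The member past 2-fold lower was Vil1, a brush border protein, at 10.5 and 35.1 CPM.

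These ratios came with more cells that hold the products. Atp4a had 3 or more UMIs in 31.7% of thinned pup cells (26.8 to 36.9%), 4.35% of E19 cells (2.45 to 7.07%), 3.45% of pup immune cells and 1.59% of E19 immune cells. Unthinned, at least 1 UMI of Atp4a was found in 84.9% of pup and 75.7% of E19 cells, but also in 48.8% of pup and 64.4% of E19 immune cells, with median depths of 5935 and 8891.5 UMIs. Kcne2 was clear of this background, at 11.4% of pup cells and 0.290% of E19 cells with none among immune cells, of which 0 of 58 pup cells allows a share of up to 6.16%.

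The authors' own clustering put 107 pup cells and 25 E19 cells of the stomach in its cluster 12, which held most Atp4a. In a comparison added after the data were seen, leaving these cells out took Atp4a to a log2 ratio of -0.05 and the acid secretion list to a median of -0.33, with none of 15 compared genes higher. Of all 9534 genes compared without these cells 3.69% were higher and 7.73% lower, with a median of -0.27. The reverse comparison, within cluster 12, gave 9779 CPM of Atp4a in the pup and 5730 CPM at E19, a log2 ratio of 0.77 (0.69 to 0.85), and 1.06 (0.97 to 1.16) for Atp4b. The E19 cells of this cluster were shallow, with a median of 4891 UMIs against 36615 in the pup and 233347 UMIs in all. Its pup cells were mixed: 75 were parietal-like and 31 lay in the unnamed cluster 4 of the clustering described further on. The parietal-like cells had 11994 CPM of Atp4a and the unnamed cluster 4 had 5498 CPM. The E19 cells were not split in this way. Cluster 12 held 30.5% of the pup and 6.83% of the E19 stomach columnar cells. The parts of more such cells and of more transcripts per cell in the overall ratio were not tested.

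Mucus and surface products split by cell type. Of 16 pit cell products 14 were compared, with 4 at least 2-fold higher and 1 lower, beside 5.48% and 9.84% of all genes. Their median log2 ratio was 0.08. This median was -0.10 in cells with Xist and without Y-linked UMIs and 0.54 without cluster 12. Gkn1 and Gkn2, gastrokines of the surface epithelium, stood at 2601 and 2645 CPM in the pup and 693 and 671 CPM at E19. Of their pup UMIs, 62.2% and 57.4% lay in 5 cells each. Psca, a membrane protein of surface and isthmus cells, had 2318 and 379 CPM, and Aldh3a1, an aldehyde dehydrogenase, 32.3 and 5.24 CPM. Most of the pup Psca UMIs lay in parietal-like cells (6386 CPM, against 5025 CPM in the fewer pit-like cells of the clustering described further on). Tff1 differed by less than 2-fold, with 6829 CPM (6777 to 6882) at E19 against 8826 CPM (8771 to 8880) in the pup. The gasdermin Gsdmc4 was lower, at 1.23 and 18.5 CPM, and its paralogs Gsdmc2 and Gsdmc3 were likewise at 7.01 and 119 CPM and at 1.14 and 26.5 CPM. Reads of near-identical gasdermin C copies may be shared among them.

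Of 10 neck cell products 6 were compared, with 4 higher and none lower, beside 5.48% and 9.84% of all genes. Their median log2 ratio was 1.55. The gland mucin Muc6 stood at 841 CPM in the pup, 91.1 CPM at E19 and 209 CPM at E15, Gkn3 at 911, 183 and 244 CPM, and A4gnt, which adds the terminal sugar of gland mucin, at 30.1, 8.48 and 7.77 CPM. Tff2, the trefoil peptide that accompanies Muc6, had 2488 CPM in the pup and 1015 CPM at E19. Muc6 had 3 or more UMIs in 33.1% of thinned pup cells, 3.19% of E19 cells and 6.90% of pup immune cells, and a UMI in 77.8% and 61.5% of columnar and 34.9% of pup immune cells unthinned. Psca reached 56.6% and 22.3% with none of 58 pup immune cells, and neither gene had 3 UMIs in any of 126 E19 immune cells at this depth.

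Lgals4 went the other way from the remaining class markers, at 572 CPM (557 to 588) at E19 against 232 CPM (223 to 241) in the pup, a log2 ratio of -1.30. Other surface or secreted products were much lower in the pup: Fcgbp, a mucus protein that binds the Fc part of IgG, at 2.19 and 82.0 CPM, Lypd2 at 1.75 and 52.0 CPM, and the protease inhibitor Wfdc2 at 98.8 and 385 CPM. Fcgbp was higher at E19 than at E15 (19.4 CPM), whereas Wfdc2 and Lypd2 were at 452 and 48.7 CPM at E15.

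Most endocrine hormone UMIs of the E19 cells lay in single cells. Of 28 endocrine genes 5 passed 100 UMIs, with 1 higher and 3 lower, beside 5.48% and 9.84% of all genes. Gast (gastrin) stood at 2.28 CPM in the pup and 116 CPM at E19, and Sst (somatostatin) at 8.06 and 259 CPM, but 97.5% of the E19 UMIs of Gast and 95.8% of those of Sst lay in 1 cell each. The 92 pup UMIs of Sst were spread over 80 cells. All 247 UMIs of Ppy (pancreatic polypeptide) and all 113 of Iapp (amylin) at E19 were also in 1 cell, and the pup cells had none. Ghrl (ghrelin) had 137 CPM in the pup and 318 CPM at E19, with 67.3% and 85.8% of the UMIs in 1 cell. The same held for Alb (albumin) in the pup, where 98.8% of 1338 UMIs lay in 1 cell. Only Avil of 12 tuft cell genes was compared (6.48 and 6.39 CPM). The ratios of Gast, Sst, Ppy, Iapp, Ghrl and Alb thus rest on individual cells.

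**Figure D2:**
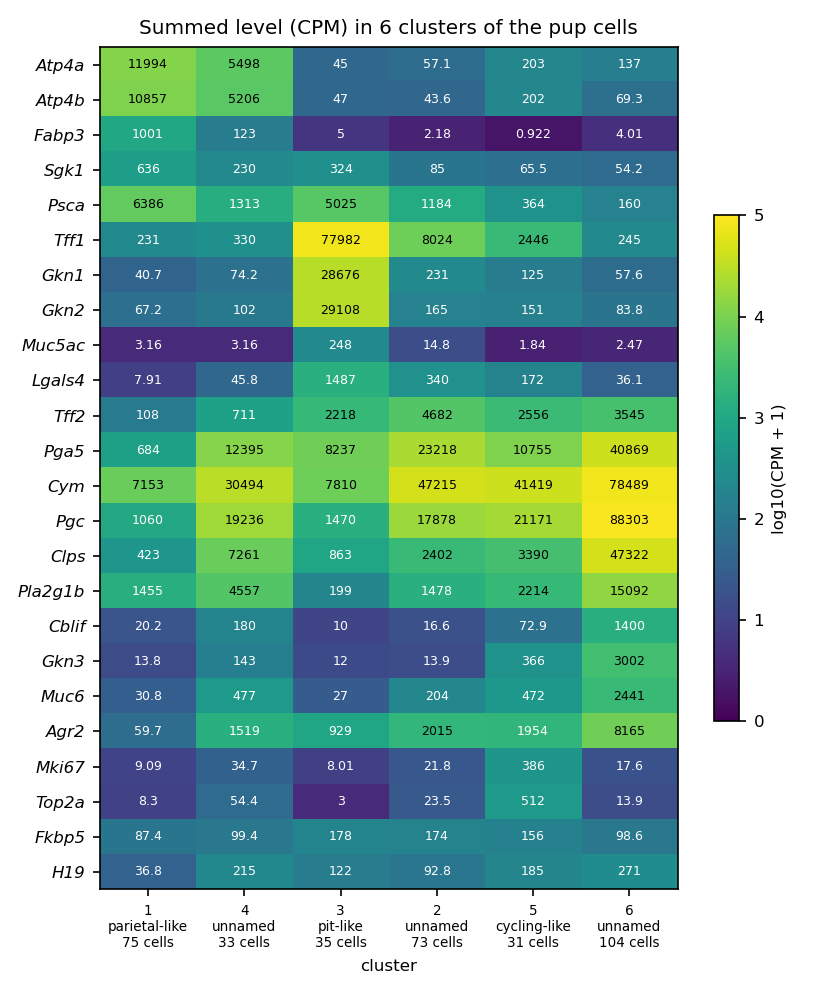
Summed CPM of 24 genes (rows) in the 6 clusters of the 351 pup cells (columns, with their number of cells), printed in each field and coloured by log10(CPM + 1). Atp4a and Fabp3 are highest in cluster 1, Gkn1 and Gkn2 in cluster 3, and Pgc, Clps and Gkn3 in cluster 6, while Fkbp5 lies between 87.4 and 178 CPM in all 6.

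Clustering the 351 pup cells alone gave 6 clusters, which describe how the members vary and were not tested. Cluster 6 was left unnamed, since 4 chief cell markers (Pgc, Cblif, Pga5 and Bhlha15) were higher in it while its 10 leading genes held 2 neck cell markers (Gkn3 and Muc6) and 1 chief cell marker (Cblif). It had 104 cells (29.6%) and held 75.6% of the Pgc UMIs, 88.3% of those of Clps and 53.9% of those of Cym. Most UMIs of the neck products Muc6 (82.4%) and Gkn3 (93.7%) were in this cluster too, whereas Tff2 had 40.5% there and 37.8% in cluster 2. The 36 cells richest in Gkn3 held 96.0% of its UMIs, and the 36 richest in Pgc 51.3%, so these products were spread differently over cells. Cluster 1, parietal-like by 10 markers although none was among its 10 leading genes, had 75 cells (21.4%), a median mitochondrial share of 8.14% and 79.5% of the Atp4a UMIs. Its leading genes by ratio were Cyp2c29, Sycn, Hamp2 and Fabp3, with most pup UMIs of Cyp2c29 and of Hamp2 in 5 cells each.

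Cluster 3, pit-like by 8 markers, had 35 cells (9.97%) with Tff1 at 77982 CPM, 77.3% of all Tff1 UMIs, and 96.5% of those of Gkn1, 96.3% of Gkn2 and 56.1% of Lgals4. Gkn2 and Gkn3, neighbours on chromosome 6, thus differed in the clusters that held them: Gkn2 stood at 29108 CPM in the pit-like and 83.8 CPM in cluster 6, and the pit-like cluster held 0.115% of the Gkn3 UMIs, against 3002 CPM in cluster 6. Cluster 5, cycling-like by all 12 markers, had 31 cells (8.83%). Its cells also held Cym at 41419 CPM and Pgc at 21171 CPM. Cluster 2 with 73 cells and cluster 4 with 33 cells were left unnamed. The former had Tff2 at 4682 CPM and Cym at 47215 CPM, and the latter both Atp4a at 5498 CPM and Pgc at 19236 CPM with the highest median depth, 41957 UMIs. Doublets were not called, and their part in cluster 4 was not tested.

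Genes known to respond to glucocorticoids, the adrenal hormones that surge around birth, were higher as a group. Of 26 listed genes 23 were compared, with a median log2 ratio of 1.01. In the pup 13 were at least 2-fold higher and none was lower, beside 5.48% and 9.84% of all genes. Sgk1, a kinase that raises sodium transport, had 13.9 CPM (11.7 to 16.5) at E19 against 233 CPM (225 to 242) in the pup. Fkbp5, a chaperone of the glucocorticoid receptor, had 124 and 14.1 CPM, Klf15, a transcription factor of fasting metabolism, 27.2 and 1.78 CPM, and Pdk4, which spares glucose, 106 and 12.1 CPM. Glul (glutamine synthetase) had 827 and 194 CPM and the metallothionein Mt1 7339 and 3645 CPM.

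At E15 Fkbp5, Sgk1, Klf15 and Glul were near their E19 levels, at 16.8, 10.6, 1.81 and 178 CPM. Fkbp5 lay between 87.4 CPM in the parietal-like and 178 CPM in the pit-like cluster, whereas 60.3% of the Sgk1 UMIs were in parietal-like cells. A UMI of Fkbp5 was found in 46.6% of thinned pup cells (41.2 to 52.1%) and 6.67% of E19 cells (4.27 to 9.84%), and unthinned in 88.0 and 24.3%. Immune cells, which also transcribe it, had 46.6% in the pup and 14.3% at E19. In stomach stroma 14 of 17 compared genes of the list were at least 2-fold higher with a median of 2.02, where 6.76% of 8179 genes were higher, 8.82% lower and the median of all was -0.02. Lists of epithelial products were higher in the stroma as well, with 6 of 6 pit and 5 of 6 acid secretion genes (medians of 1.73 and 1.64), as were 15 of 30 immediate early and heat shock genes. The summed columnar markers there were at 3610 CPM in the pup and 1445 CPM at E19, and the part of carried-over epithelial RNA was not tested. Without cluster 12, where 3.69% of all genes were higher, 15 of 22 genes of the glucocorticoid list were higher in the columnar cells, with a median of 1.32. It was 8 of 16 within cluster 12, where 9.94% of all genes were higher, with a median of 0.72.

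**Figure D3:**
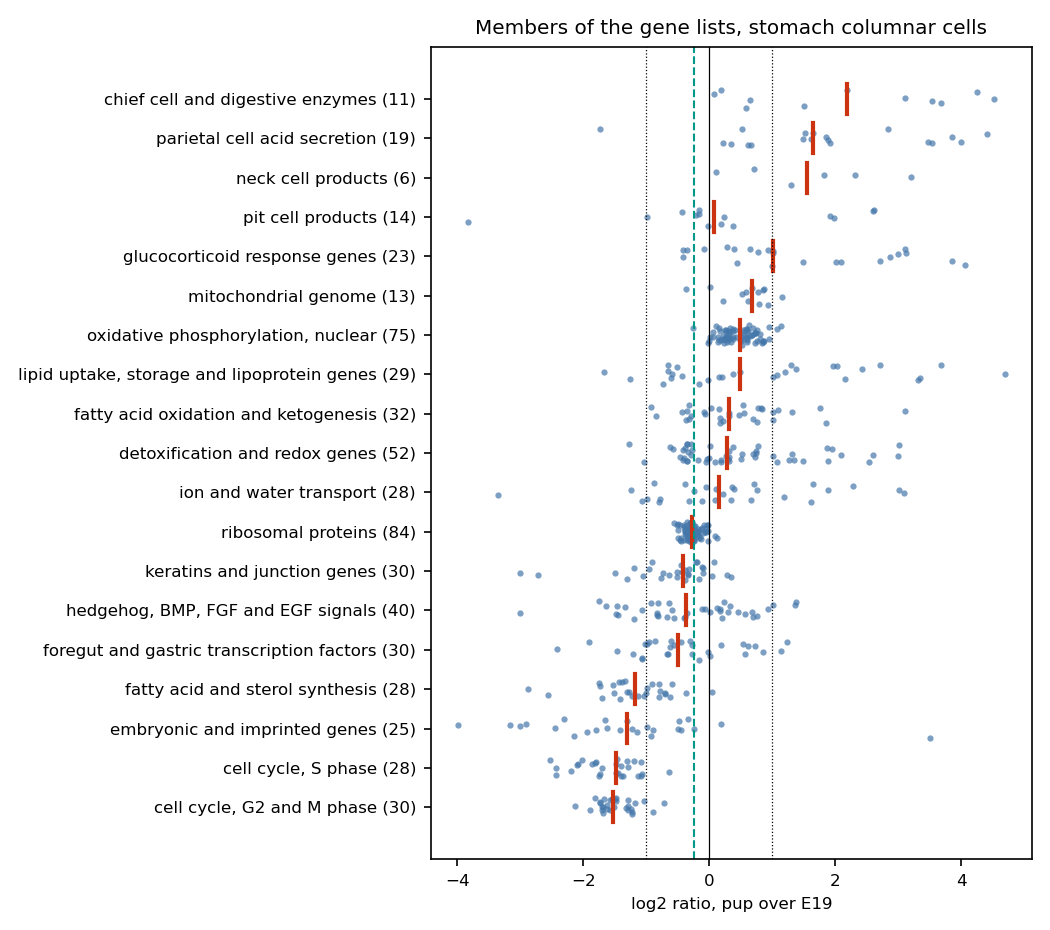
Log2 ratio of pup over E19 (x axis) for the compared members of 19 gene lists (rows, number of members in parentheses). Each dot is 1 gene, red bars are list medians, the dashed line is the median of all genes (-0.25) and dotted lines mark 2-fold. Chief, parietal and neck lists lie to the right, with medians of 2.18, 1.64 and 1.55, and both cell cycle lists to the left, with medians of -1.48 and -1.54.

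Lipid handling differed in direction between uptake and synthesis. Of 37 genes of lipid uptake, storage and lipoproteins 29 were compared, with a median log2 ratio of 0.48. Among them 14 were higher and 2 lower, beside 5.48% and 9.84% of all genes (7 of 26 higher without cluster 12, beside 3.69%). Fabp3, a fatty acid binding protein of oxidative muscle, had 237 and 9.11 CPM, Cd36, a fatty acid receptor, 60.5 and 4.61 CPM, Lpl, which frees fatty acids from lipoproteins, 171 and 31.7 CPM, and Apoa1, the main protein of high density lipoprotein, 598 and 154 CPM. The Fabp3 UMIs of the pup lay almost all in parietal-like cells (93.4%), and within cluster 12 its log2 ratio was 2.96 (2.35 to 3.66). Fabp4 (31.7 and 3.04 CPM) was a leading gene of the pit-like cluster instead.

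None of 28 compared genes of fatty acid and sterol synthesis was higher and 17 were lower, where 9.84% of all genes were lower. Their median log2 ratio was -1.18, and under TMM scaling 12 were lower, beside 5.54% of all genes. Scd2, a desaturase of fatty acids, stood at 74.5 CPM (69.6 to 79.7) in the pup, 546 CPM (531 to 561) at E19 and 430 CPM at E15. Elovl6, which lengthens fatty acids, had 8.41 and 50.2 CPM, and the sterol pathway enzymes Sqle and Fdps 22.9 and 77.2 CPM and 45.6 and 152 CPM. A UMI of Scd2 was found in 25.2% of thinned pup cells and 86.4% of E19 cells, and unthinned in 65.2 and 95.4%, with 39.7 and 41.3% of thinned immune cells. Without cluster 12, where 7.73% of all genes were lower, the list had 18 of 28 genes lower. The stomach stroma had 14 of 26 lower, with a median of -1.13.

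Most mitochondrial genes were within 2-fold. All 75 nuclear genes of oxidative phosphorylation were compared, with 2 at least 2-fold higher, a smaller share than the 5.48% of all genes, and a median log2 ratio of 0.49. In the GE-SCJ columnar cells none of the 75 was past 2-fold, with a median of 0.07. The 2 genes were Uqcrq, a complex III subunit, at 1244 and 569 CPM, and Ndufa1 of complex I at 361 and 172 CPM. Under TMM scaling 13 passed 2-fold. Without cluster 12 none was higher, 3 were lower and the median was -0.55, while 23 were higher within cluster 12, with a median of 0.82. Of all 4498 genes compared within that cluster 9.94% were higher and 8.43% lower, with a median of -0.06, and its pup and E19 cells had median mitochondrial shares of 5.66% and 1.67%. The 13 genes of the mitochondrial genome had a median of 0.68, with mt-Nd1 past 2-fold at 3347 and 1506 CPM, and 6 past 2-fold under TMM scaling. Their median without cluster 12 was 0.32. With cells over 10% mitochondrial UMIs left out, no gene of either list was past 2-fold, and the medians were 0.32 for the nuclear and 0.36 for the mitochondrial genes. Uqcrq then had a log2 ratio of 0.88, Ndufa1 of 0.90 and mt-Nd1 of 0.80.

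Of 32 compared genes of fatty acid oxidation and ketogenesis 7 were higher and none lower, beside 5.48% and 9.84% of all genes. Their median of 0.31 went to -0.25 without cluster 12. Oxct1, which lets cells burn ketone bodies, had 234 and 68.8 CPM, Ppargc1a, a coactivator of mitochondrial genes, 51.5 and 14.1 CPM, and Ehhadh, a peroxisomal enzyme of fatty acid oxidation, 15.3 and 6.07 CPM. Of 24 glycolysis and gluconeogenesis genes 3 were higher and 5 lower, beside the same shares. Under TMM scaling 1 was lower, where 5.54% of all genes were lower, and without cluster 12 it was 10, where 7.73% were. Ldhb, the lactate dehydrogenase of oxidative tissue, had 243 and 77.8 CPM, whereas Ldha, that of glycolytic tissue, had 273 and 554 CPM. Without cluster 12 the log2 ratio of Ldhb was -1.05 and that of Oxct1 -1.14, and within cluster 12 they were 0.14 (-0.10 to 0.40) and 1.03 (0.70 to 1.39).

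**Figure D4:**
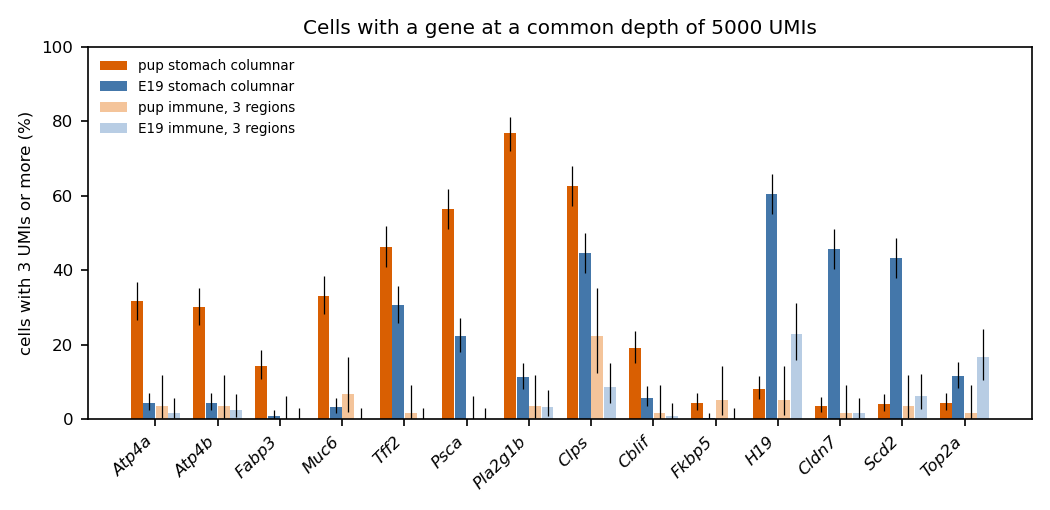
Share of cells (y axis, percent) with 3 or more UMIs of 14 genes (x axis) after thinning each cell to 5000 UMIs, in columnar cells of the stomach and in immune cells of 3 regions at pup and E19. Bars are shares and lines exact 95% intervals for counting error. Atp4a, Muc6 and Pla2g1b are in more pup than E19 columnar cells (31.7 and 4.35% for Atp4a), and H19, Cldn7 and Scd2 in fewer.

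Embryonic genes were lower in the pup. Of 30 embryonic and imprinted genes 25 were compared, 15 were lower and 1 higher, beside 9.84% and 5.48% of all genes. Their median log2 ratio was -1.31. H19, an imprinted noncoding RNA (chr7:142575529-142578143, minus strand), stood at 3475 CPM at E15, 1404 CPM (1380 to 1428) at E19 and 156 CPM (149 to 163) in the pup. Igf2, the fetal growth factor of the same imprinted region, followed with 652, 248 and 45.2 CPM, and Sox11, a transcription factor of embryonic progenitors, with 245, 52.8 and 3.24 CPM. All 3 were lower at each later stage, as was Cldn6, a claudin of embryonic epithelium, at 136, 14.0 and 1.66 CPM. The gene past 2-fold higher was Afp (alpha-fetoprotein), at 44.8 CPM in the pup and 3.88 CPM at E19, with 55.5% of its 512 pup UMIs in 5 cells. A UMI of H19 was found in 35.5% of thinned pup cells and 80.6% of E19 cells, and unthinned in 76.1 and 93.7%, with 39.7 and 56.3% of thinned immune cells.

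Cell cycle genes were lower in the pup. Of 28 S phase genes 27 were lower with a median of -1.48, and of 30 G2 and M phase genes 28 with a median of -1.54. The share lower over all genes was 9.84%. Top2a, which untangles replicated DNA, had 210 CPM (201 to 220) at E19 against 65.4 CPM (60.8 to 70.3) in the pup, and Cdc6, which licenses replication origins, 2.89 and 17.1 CPM. Under TMM scaling 22 S phase and 23 G2 and M phase genes were past 2-fold lower, beside 5.54% of all genes. Without cluster 12 it was 22 of 27 and 19 of 30, beside 7.73%. Without the deepest cells (242 pup and 308 E19 cells remained) 20 of 25 S phase genes but 12 of 30 G2 and M phase genes were lower, the latter with a median of -0.91. The stroma had lower levels as well, with medians of -1.09 and -2.42. Top2a had 3 or more UMIs in 4.40% of thinned pup cells and 11.6% of E19 cells, and a UMI in 28.8 and 40.7% unthinned. Immune cells, which also divide, had 1.72% and 16.7% at the thinned depth. The 31 cycling-like pup cells held 74.3% of the Top2a UMIs of the pup.

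Most junction, patterning and signal genes were within 2-fold, where 5.48% of all genes were higher and 9.84% lower. Of 30 keratin and junction genes 6 were lower and none higher. Cldn7, a tight junction protein of simple epithelia, had 76.3 CPM (71.3 to 81.5) in the pup, 501 CPM (487 to 516) at E19 and 786 CPM at E15, Krt19 512 and 1266 CPM, and Krt7 52.7 and 149 CPM, whereas Krt18 had 1018 and 994 CPM. Cldn7 had a UMI in 22.9% of thinned pup and 84.6% of E19 cells, unthinned 58.4 and 95.4%, with 10.3% of thinned pup immune cells. Of 30 foregut and gastric transcription factors 7 were lower and 2 higher, and 3 and 3 under TMM scaling. Sox2, which marks foregut progenitors, had 11.7 and 63.1 CPM, Onecut2 6.74 and 25.7 CPM, and Id1, a target of BMP signals, 159 and 439 CPM.

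The hedgehog ligands Shh and Ihh, which signal from the epithelium to the mesenchyme, had 10.9 and 36.9 CPM and 35.4 and 110 CPM. Igfbp5, which binds insulin-like growth factors, had 25.7 and 207 CPM, while Igf1r, their receptor, was higher with 194 and 75.0 CPM. Of the 40 compared genes of these signals 9 were lower and 3 higher (7 and 5 under TMM scaling), and 28 differed by less than 2-fold. Of 11 stem cell and WNT target genes 1 was higher and 1 lower, near the 5.48% and 9.84% of all genes, and Sox9 had 333 and 327 CPM. Their median of -0.06 turned positive, 0.21, under TMM scaling.

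Secretion, defence and detoxification genes held a few large differences each, where 5.48% of all genes were higher and 9.84% lower. Agr2, a disulfide isomerase for mucins, had 3174 and 1074 CPM, and Furin, a protease that matures secreted proteins, 215 and 31.2 CPM. Of 45 genes of protein folding and secretion 3 were higher, a share near that of all genes, 1 was lower and 41 were within 2-fold. Their median of -0.20 became 0.07 under TMM scaling. Dmbt1, a mucosal scavenger protein, had 740 and 208 CPM and the chemokine Cxcl17 38.6 and 3.04 CPM, among 2 higher and 3 lower of 13 defence genes. Ifitm1, an antiviral membrane protein also known from germ cells, had 14.3 and 144 CPM, one of 3 lower genes among 14 of interferon response and antigen presentation. Their median of -0.23 became 0.04 under TMM scaling. Of 52 detoxification genes 14 were higher and 2 lower, led by Akr1b8 with 84.5 and 10.4 CPM and Aldh1a1, which makes retinoic acid, with 185 and 32.1 CPM. In ion and water transport 7 of 28 were higher and 3 lower, among them Scnn1a, the epithelial sodium channel, at 60.4 and 12.4 CPM and Trpv6, a calcium channel, at 1.14 and 12.5 CPM. Without cluster 12, 8 of 50 detoxification genes were higher, and 1 of 26 transport genes was, with a median of -0.25. Within cluster 12, where 9.94% of all genes were higher, it was 19 of 42 and 5 of 17, with medians of 0.93 and 0.80.

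Ribosomal protein genes were all within 2-fold, 84 of 84, with a median of -0.28 near that of all genes. Of 37 matrix, integrin and protease genes 3 were higher and 5 lower (3 and 2 under TMM scaling), near the 5.48% and 9.84% of all genes. Of 30 immediate early and heat shock genes 1 was higher and 4 lower in the columnar cells, with Fos at 1441 and 1267 CPM, and their median of -0.19 became 0.08 under TMM scaling. Without cluster 12, 5 of 30 were higher and 6 lower, with a median of 0.14. Within cluster 12 none of 23 was higher and 8 were lower, with a median of -0.82. In the stroma 15 of 30 were higher. Hsph1, a heat shock protein, had 12.9 and 62.9 CPM.

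**Figure D5:**
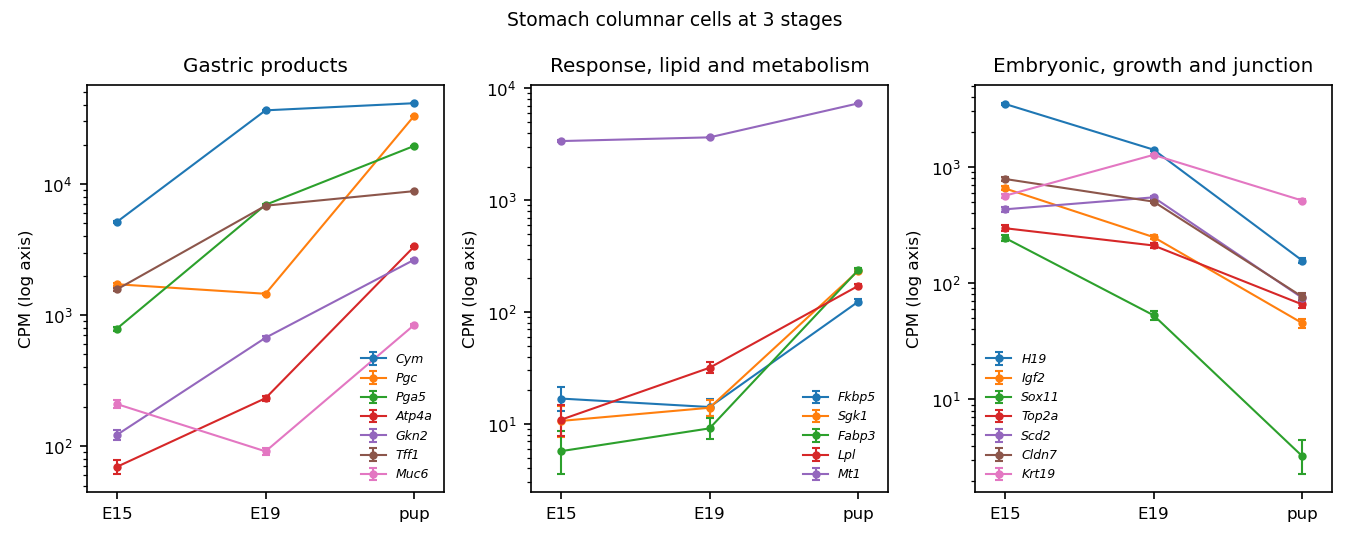
Levels of 19 genes in stomach columnar cells at E15, E19 and pup (x axis) in CPM on a log axis, in 3 panels. Points are summed levels of 1 sample each with exact 95% intervals for counting error. Cym differs more between E15 and E19 than between E19 and pup, Pgc the other way round, and H19, Igf2 and Sox11 are lower at each later stage.

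The genes with the largest ratios that no list held were of low level. Hamp2, a hepcidin, had 25.7 CPM in the pup and 0.209 CPM at E19, Cyp2c29, a cytochrome P450, 33.8 and 0.419 CPM, and Npw, a neuropeptide, 29.2 and 0.524 CPM. Sycn, a zymogen granule protein, had 205 CPM (196 to 213) and 7.54 CPM (5.90 to 9.50). Hamp2, Cyp2c29 and Sycn were leading genes of the parietal-like cluster. Of the pup UMIs, 66.8% of 386 for Cyp2c29 and 52.7% of 294 for Hamp2 lay in 5 cells each. The largest losses in CPM among genes outside the secreted products were those of Tmsb4x, which binds actin monomers (3925 and 9303 CPM), and Ptma, a nuclear protein of growing cells (1668 and 4597 CPM).

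The GE-SCJ columnar cells gave the same contrast in separately tagged cells (291 in the pup, 274 at E19), which share the library and may share the mice. There 5.7% of 9394 genes were at least 2-fold higher in the pup and 9.44% lower, with a median of -0.23. Of 9337 genes compared in both regions, 477 were higher in the stomach and 505 in the GE-SCJ, and the 337 shared ones made up 70.6% and 66.7%. Of 872 and 877 lower genes 606 were shared, 69.5% and 69.1%. The log2 ratios in the stomach and the GE-SCJ were -3.17 and -3.21 for H19 and -2.87 and -2.92 for Scd2, with intervals that overlap. They were 4.51 and 4.15 for Pgc, 3.21 and 3.46 for Muc6 and 3.12 and 3.86 for Fkbp5, the same in direction with intervals that do not overlap.

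Pit and parietal products had wider gaps between the regions. Gkn1 had a log2 ratio of 1.91 (1.87 to 1.95) in the stomach and 5.17 (5.06 to 5.29) in the GE-SCJ, Gkn2 1.98 and 4.95, and Tff1 0.37 and 2.28. Most Gkn1 and Gkn2 UMIs of the pup stomach lay in 5 cells each. Atp4a had 3.85 (3.79 to 3.91) and 2.52 (2.46 to 2.58), and the acid secretion lists had medians of 1.64 and 1.07. The intervals given do not overlap, but with 1 sample per region and stage the difference between regions was not tested.

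The stages also differed in sex-linked transcripts. A UMI of a Y-linked gene was found in 25 of 351 pup cells (7.12%, 26 UMIs) and in 219 of 366 E19 cells (59.8%, 812 UMIs), and Xist in 97.4% and 61.2% of cells. Ddx3y, Eif2s3y, Kdm5d and Uty were thus at least 2-fold lower in the pup. Sex and stage cannot be told apart in full for these pools. In an alternative added after the data were seen, 318 pup and 121 E19 cells with Xist and without Y-linked UMIs gave 531 genes higher and 842 lower, with a median of -0.25. Among the genes named here by rule that were past 2-fold and could be compared, 140 of 146 stayed so. Over all genes, 451 of the 546 higher and 624 of the 980 lower genes were past 2-fold in these cells, where genes with too few UMIs to be compared count as not past it.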

How the data were processed

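The authors aligned the reads of 1 10x Genomics 3′ CellPlex library to mm10 with Cell Ranger 6.1.1, per the submitters' processing notes, assigned cells to region and stage by their tags and deposited UMI counts for 19550 genes in 7808 cells with cluster and class labels. They had removed cells with under 100 genes and those above their limits on genes, UMIs and mitochondrial share. The deposited mitochondrial percent was used to describe cells. Counting is 3′-tag based and paralogs may share reads. Cells with the Columnar Epithelial label and a stomach tag were summed per stage, and CPM was computed over all genes. Genes with 100 UMIs or more over both stages were compared, with 1 UMI added to each sum. A gene was called at 2-fold or more. Intervals are exact 95% intervals (Poisson for CPM, Clopper-Pearson for shares, conditional binomial for ratios) and cover counting error only. With 1 pool per stage no test was made. The depth per cell is given with the results, and a count of 0 was set at 3 counts for upper limits.

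Pup cells were clustered on 2000 variable genes with 20 principal components, 15 neighbours and Leiden resolution 0.6 (scanpy 1.11.5). A cluster was named where at least 4 markers of a list were 2-fold higher in it and found in at least 25% of its cells and no other list had more markers among its 10 leading genes, a rule set after values were seen. Doublets were not called. Shares of cells were compared after thinning to 5000 UMIs. The members, the 29 gene lists and the rules were chosen with earlier results of these data known, and the promoter and pancreatic genes after values were seen. Named by rule were the 15 largest ratios and 10 largest CPM differences in each direction (mitochondrial, ribosomal protein and hemoglobin genes left out of the latter), up to 5 members of each list with most UMIs and 5 with the largest ratio, and the class markers, 262 genes in all, of which 259 had a position in GENCODE M21 (GRCm38). The procedure was tested on simulated data. TMM factors came from edgeR 4.0.16 in R 4.3.3, and the rest from Python 3.11.15 with numpy 2.4.6, pandas 2.3.3 and scipy 1.17.1. Alternatives changed the scaling, the minimum, the cells and the UMIs added.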

Additional observations from a re-analysis of the deposited data

Results flagged for a closer look

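Gast and Sst had opposite directions in the stomach and the GE-SCJ. The log2 ratio of pup over E19 of Gast was -5.62 in the stomach and 8.60 in the GE-SCJ, and that of Sst -4.99 and 2.01. The difference between regions was not tested. In the E19 stomach 1 cell held 97.5% of the Gast UMIs and 1 cell 95.8% of the Sst UMIs, and in the pup GE-SCJ 1 cell held 59.1% of 6208 Gast UMIs and 1 cell 71.3% of 321 Sst UMIs. With the top 1% of cells for each gene left out, the ratios in the stomach were -0.75 and -0.30.

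Another 8 genes were past 2-fold in opposite directions in the 2 regions. The hemoglobin genes Hba-a1, Hba-a2, Hbb-bs and Hbb-bt were lower in the pup stomach (-3.03, -2.48, -2.94 and -3.10) and higher in the pup GE-SCJ (1.15, 1.07, 1.10 and 1.71). Pyy, Dnase1l2 and Gpx3 were also lower in the pup stomach (-3.27, -1.18 and -1.28) and higher in the pup GE-SCJ (2.91, 1.44 and 1.02), and Fut9 the reverse (1.16 and -1.10). Of the 2559 Pyy UMIs in the E19 stomach 99.1% lay in 5 cells.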

How the results depend on the processing

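No paired analysis was possible because each stage is 1 pool of mice with no replicate numbers. From 546 genes higher and 980 lower with a median of -0.25, TMM scaling gave 824 and 552 with a median of 0.0233, and centring on the median 786 and 580. A minimum of 10 UMIs gave 1010 and 2012, of 50 UMIs 683 and 1254, and of 500 UMIs 239 and 379. A whole interval past 2-fold gave 362 and 497, a 4-fold threshold 185 and 122, and a 1.5-fold threshold 1074 and 2563. Thinning cells to 5000 UMIs gave 196 and 337, with fewer genes compared. Library sizes that left out hemoglobin, ribosomal and mitochondrial genes gave 513 and 1065, leaving out the 10 leading genes 640 and 741, cells of at most 10% mitochondrial UMIs 470 and 865, and leaving out the deepest cells (242 pup and 308 E19 cells remained) 441 and 686. Of 168 named genes past 2-fold, 148 were so under TMM scaling, and without deposited cluster 12 it was 114 of the 148 that could be compared. Without deposited cluster 12, added after the data were seen, 352 were higher and 737 lower, 258 and 622 of them among those above. There the acid secretion list had a median of -0.33 and these genes turned to negative log2 ratios: Smim38 (-0.0918), Atp4a (-0.0540), Atp4b (-0.66), Clic6 (-0.33), Slc4a2 (-0.33), Oxct1 (-1.14), Uqcrq (-0.52) and Ldhb (-1.05). Of these, Smim38 and Atp4a lay above the median of all genes in that setting. With the top 1% of cells for each gene left out, Alb (-0.25), Chga (-0.32), Pck1 (-0.58) and Spink1 (-0.60) turned to negative log2 ratios and Ghrl (0.0124) to a positive one. In cells with Xist and without Y-linked UMIs, also added later, Ghrl was at 1.55. After thinning only Xist of the sex-linked list was compared, at 0.845. Counts of 1 pool cannot show the spread between mice, and genes under 100 UMIs were not compared.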

Other observations

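The deposited clusters 2, 5 and 12 held 24, 220 and 107 of the pup cells and 334, 7 and 25 of the E19 cells, so that most pup and most E19 stomach columnar cells carried different cluster numbers. Within cluster 12, 8.43% of 4498 genes were at least 2-fold lower in the pup. Of the embryonic genes 8 of 12 were lower there, with a median of -1.48, while of the fatty acid and sterol synthesis genes 4 of 15 were, with a median of -0.43. H19 stood at 96.3 CPM in the pup and 1423 CPM at E19, Cldn7 at 27.2 and 309 CPM and Scd2 at 49.9 and 214 CPM. Esrrg, a nuclear receptor of oxidative cells, had 319 and 381 CPM in this cluster. In cluster 5, with 7 E19 cells, H19 had 145 CPM in the pup and 283 CPM at E19, Cldn7 86.1 and 204 CPM and Scd2 84.6 and 278 CPM. Fkbp5 had 142 and 111 CPM and Pgc 50632 and 15453 CPM in cluster 5. The E19 level of Fkbp5 there rests on 24 UMIs (71.3 to 166 CPM). All 7 of these E19 cells had Xist and 5 had a Y-linked UMI, and the part of mixed droplets was not tested.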
